A study of Mus musculus with 9 samples.

Results

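The 10 chemokines described here are *Ccl2*, *Ccl3*, *Ccl4*, *Ccl6*, *Ccl9*, *Ccl12*, *Ccl24*, *Cxcl10*, *Cxcl12* and *Cxcl16*. They were chosen by name as chemokines of fetal liver (FL) macrophages, with earlier results of these data known, and found in the table by their Ensembl identifiers. All 10 were among its 13708 genes. Bulk RNA-seq was performed on CD45+ F4/80hi CD11blow macrophages sorted from mouse livers at E15.5 (embryonic day), with 5 *Mrc1Cre Xpr1fl/fl* and 4 *Xpr1fl/fl* samples. *Xpr1* encodes a phosphate exporter, and in both groups exon 2 of *Xpr1* is flanked by *loxP* sites, so the controls carried the floxed allele without Cre. The Cre was inserted into *Mrc1*, the gene of the mannose receptor CD206, on a C57BL/6JRj background, and the Cre strains were in general used as heterozygotes. *Mrc1* is also transcribed by liver sinusoidal endothelial cells, so deletion driven by it is not restricted to macrophages. The labels do not state whether each sample came from its own embryo, and p-values therefore measure the spread between these samples, which may in part be technical.

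Chemokines are small secreted proteins that attract leukocytes by binding receptors coupled to G proteins, and they fall into the CC and CXC families by the spacing of their first cysteines. Macrophages make some of them at rest and switch on others when interferons activate STAT and IRF factors or when danger signals activate NF-kB. In the FL, where blood is formed before birth, *Cxcl12* from stromal cells holds blood stem and progenitor cells in place through CXCR4, whereas CC chemokines guide monocytes, granulocytes and their precursors. For the descriptions below the chemokines were grouped by their usual inducers into interferon-induced (*Cxcl10*, *Ccl2* and *Ccl12*), NF-kB-induced (*Ccl3* and *Ccl4*) and constitutive (*Ccl6*, *Ccl9*, *Ccl24*, *Cxcl16* and *Cxcl12*) chemokines. The grouping is a convention, since *Ccl2* and *Cxcl10* also answer to NF-kB.

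Of the 10 genes, 7 lie on chromosome 11 of GRCm39, the build used by the authors. *Ccl9* (chr11:83463745-83473161, minus strand) and *Ccl6* (chr11:83478708-83483913, minus strand) are neighbors 5546 bases apart. *Ccl3* (chr11:83538670-83540191, minus strand) and *Ccl4* (chr11:83553383-83555509, plus strand) lie 13191 bases from each other in the same cluster. *Ccl2* (chr11:81926397-81928279, plus strand) and *Ccl12* (chr11:81992645-81994466, plus strand) form another pair, 64365 bases apart. *Cxcl16* lies elsewhere on that chromosome (chr11:70344517-70352620, minus strand). *Cxcl10* (chr5:92494497-92496748, minus strand) and *Ccl24* (chr5:135598668-135601905, minus strand) are on chromosome 5, and *Cxcl12* is on chromosome 6 (chr6:117144945-117158328, plus strand). All 10 are protein-coding. On the opposite strand, the long noncoding RNA gene *E230016K23Rik* overlaps *Ccl6* and *Ccl9*, and *Gm53692* overlaps *Ccl3*. Whether their exons share sequence with these chemokines was not checked. No stretch of 31 bases was shared with transcripts of the other chemokine genes for 9 of the 10, and *Ccl9* shared 1 of its 2981 with *Cxcl11*.

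Promoter windows from RefSeq (GRCm38.p6, 250 bases before to 50 after the start of transcription) were at hand for 6 of the 10 genes, namely *Cxcl10*, *Ccl12*, *Ccl3*, *Ccl9*, *Ccl6* and *Cxcl12*. The windows of *Cxcl10* and *Ccl9* are shown because they are the ones among the 6 that hold a motif of those searched. They are written 5′ to 3′ on the strand of the gene with the motifs in capitals.
Cxcl10 promoter (chr5:92348840-92349139, minus strand): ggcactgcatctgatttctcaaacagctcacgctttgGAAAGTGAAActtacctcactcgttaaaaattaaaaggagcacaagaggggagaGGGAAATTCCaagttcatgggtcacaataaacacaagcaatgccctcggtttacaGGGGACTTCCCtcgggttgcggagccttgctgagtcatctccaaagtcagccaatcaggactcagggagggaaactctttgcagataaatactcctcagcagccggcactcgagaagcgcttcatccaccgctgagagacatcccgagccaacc
Ccl9 promoter (chr11:83578587-83578886, minus strand): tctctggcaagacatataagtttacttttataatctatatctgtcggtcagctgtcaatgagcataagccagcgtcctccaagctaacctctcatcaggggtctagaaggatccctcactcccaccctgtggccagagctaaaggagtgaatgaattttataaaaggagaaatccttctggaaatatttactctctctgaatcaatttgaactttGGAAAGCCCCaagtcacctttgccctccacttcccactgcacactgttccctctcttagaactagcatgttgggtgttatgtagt
The first capitals in the *Cxcl10* window are the interferon-stimulated response element core, searched as GAAANNGAAA on both strands, which 3.44% of the 32851 RefSeq windows of this length hold. The other capitals are NF-kB sites, of which *Cxcl10* has 3 matches, the last 2 overlapping each other, and *Ccl9* has 1 on the opposite strand. NF-kB sites are present in 8.46% of all windows. The STAT6 motif TTCNNNNGAA (6.95% of windows) was not matched in the 6 windows. A match describes the letters of the window and shows no binding.

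The neighbors *Ccl6* and *Ccl9* had the most alike windows of the 15 pairs aligned, with 58 identical bases over 74 aligned columns (78.4%), whereas the next pair shared 23. The shared stretch runs from −59 to 14 relative to the RefSeq start of transcription in *Ccl6* and from −18 to 48 in *Ccl9*. It thus covers both starts, but they are not aligned with each other. Whether these starts match the gene coordinates given above, which are of another build, was not checked. The stretch is shown because *Ccl9* was called as changed and *Ccl6* was not, as given below. Identical bases are in capitals.
Ccl6: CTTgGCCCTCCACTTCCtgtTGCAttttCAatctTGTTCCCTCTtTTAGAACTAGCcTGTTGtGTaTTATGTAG
Ccl9: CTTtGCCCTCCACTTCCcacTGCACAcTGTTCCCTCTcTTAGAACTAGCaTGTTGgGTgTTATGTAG
The stretch corresponds to bases 192 to 265 of the *Ccl6* window (chr11:83593038-83593337, minus strand) and to bases 233 to 299 of that of *Ccl9*.

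Values are normalized counts, which the authors obtained by dividing gene counts by DESeq2 normalization factors. Differences were tested with limma on log2(normalized count + 1) over 13594 genes with Benjamini-Hochberg adjustment, and a gene was called at an adjusted p under 0.05. The totals per sample, 26942921 to 28309443, were set by that normalization, so absolute depth is unknown. The relative depth estimated from the spacing of low values ranged from 0.831 to 1.17 of the mean. It is a rough value, since most low values did not follow that spacing. As a check of the labels, *Xpr1* was lower in each *Mrc1Cre Xpr1fl/fl* sample (1074 to 1285) than in the controls (1781 to 2239), and the count over the whole gene also includes reads outside exon 2. *Mrc1* itself, the gene that holds the Cre insertion, was at 5923 to 9095 against 22144 to 28348. No sample carried Cre without the floxed *Xpr1* allele. Effects of Cre or of its insertion therefore cannot be told apart from those of *Xpr1* deletion, here and for the chemokines. The macrophage genes *Adgre1* (F4/80) and *Csf1r* were abundant and uncalled, with log2 differences of 0.02 and 0.14, whereas the Kupffer cell genes *Clec4f* (−2.04), *Cd163* (−3.12) and *Timd4* (−0.85) were lower. Not all such genes fell, since *Nr1h3* was higher (0.37, adjusted p = 0.000219 by limma). Of 14 macrophage markers 6 were lower and 2 higher. The column names of the table begin with dates whose meaning is not named. *Mrc1Cre Xpr1fl/fl* sample 5 shares the earliest date with *Xpr1fl/fl* samples 1 to 3, *Xpr1fl/fl* sample 4 has a middle date and *Mrc1Cre Xpr1fl/fl* samples 1 to 4 the latest, so genotype and date are largely confounded, and a fit with date as a term compares the former 4 samples.

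Of the 10 chemokines, 5 rose and 3 fell in *Mrc1Cre Xpr1fl/fl* macrophages. Over all genes tested 43.1% were called, 21.5% as higher and 21.6% as lower. The genotypes did not overlap for 7 chemokines, compared with 34.1% of all genes. Among the interferon-induced chemokines 2 of 3 rose and none fell (median log2 difference 0.65), both NF-kB-induced chemokines rose (median 1.22), and of the 5 constitutive ones 1 rose and 3 fell (median −1.06). The median over all genes was 0.00. With date as a term, 8.78% of all genes were called, and of the chemokines *Cxcl10*, *Ccl4* and *Ccl9* were higher and *Ccl24* and *Cxcl16* lower. No test between the groups of inducers was run. In bulk samples such as these, fewer cells of a type and less RNA per cell cannot be told apart.

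**Figure D1:**
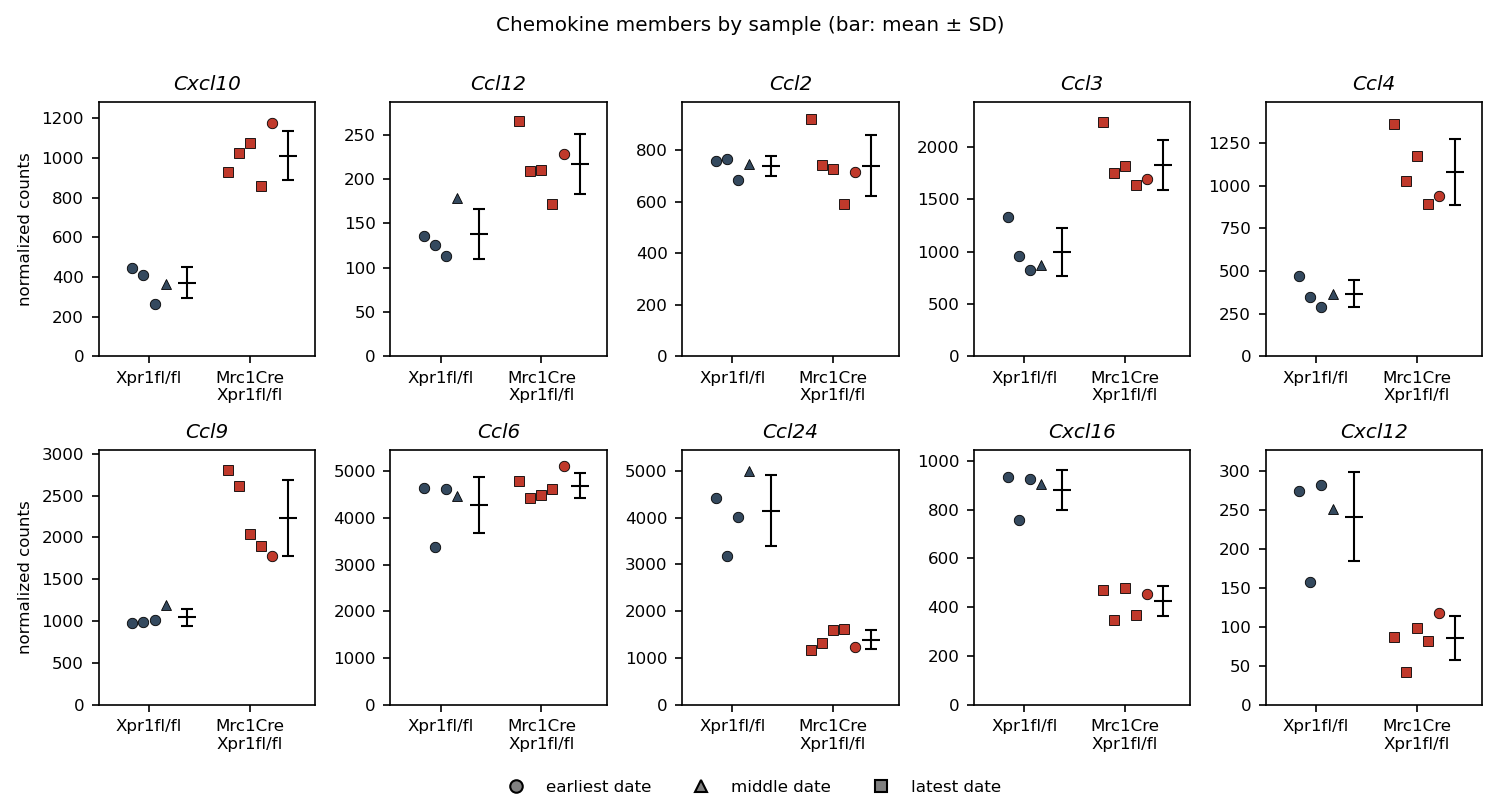
Normalized counts of the 10 chemokines in each sample, with *Xpr1fl/fl* in dark blue, *Mrc1Cre Xpr1fl/fl* in red, and the mean ± SD as bars. The shape of each point gives the rank of the date in the column name. The genotypes do not overlap for *Cxcl10*, *Ccl3*, *Ccl4*, *Ccl9*, *Ccl24*, *Cxcl16* and *Cxcl12*, and they overlap for *Ccl12*, *Ccl2* and *Ccl6*.

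Among the interferon-induced chemokines, *Cxcl10*, a ligand of CXCR3 that attracts T and NK cells, increased most. Its normalized counts were 927, 1025, 1073, 858 and 1174 in *Mrc1Cre Xpr1fl/fl* samples 1 to 5 (1012 ± 124, SD, n = 5) and 446, 411, 266 and 362 in *Xpr1fl/fl* samples 1 to 4 (371 ± 77.9, SD, n = 4). The lowest *Mrc1Cre Xpr1fl/fl* sample was thus well above the highest control. The difference was 1.46 on the log2 scale (standard error, SE, 0.14, limma adjusted p = 3.29e-05), a 2.75-fold increase. With date as a term it was 1.68 (adjusted p = 0.00524), and the *Mrc1Cre Xpr1fl/fl* sample of the earliest date, at 1174, was the highest of all. The gene *Art3* overlaps *Cxcl10* on the opposite strand, and whether their exons share sequence was not checked. The library kit keeps strand, but whether the counting used it is not given in the sources used here.

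*Ccl12*, a mouse ligand of CCR2 that recruits monocytes, changed less. It reached 265, 209, 210.4, 172 and 229 normalized counts in *Mrc1Cre Xpr1fl/fl* samples (217 ± 33.9, SD, n = 5) and 136, 126, 114 and 178 in the controls (138 ± 28.1, SD, n = 4). The ranges overlapped through a single pair, *Mrc1Cre Xpr1fl/fl* sample 4 at 172 and *Xpr1fl/fl* sample 4 at 178. The increase was 0.65 on the log2 scale (SE 0.16, limma adjusted p = 0.00656), or 1.57-fold. With date as a term the difference was 0.87 and no longer passed the threshold (adjusted p = 0.0543).

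*Ccl2*, the main CCR2 ligand for monocytes, was not called. The *Mrc1Cre Xpr1fl/fl* samples had 922, 741, 725, 590.1 and 717 normalized counts (739 ± 119, SD, n = 5), and the controls 757, 766, 683 and 746 (738 ± 37.7, SD, n = 4). All 4 controls lay inside the range of the *Mrc1Cre Xpr1fl/fl* samples. The log2 difference was −0.01 with a 95% interval from −0.25 to 0.22 (adjusted p = 0.942 by limma), so it ends below the interval of *Ccl12*, which starts at 0.31. With date as a term the intervals of *Ccl2* (−0.48 to 0.41) and *Ccl12* (0.33 to 1.41) overlapped. *Ccl2* and *Ccl12* were not tested against each other. *Ccl12* amounted to 0.282 to 0.319 of *Ccl2* in *Mrc1Cre Xpr1fl/fl* samples and to 0.164 to 0.239 in controls.

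The NF-kB-induced pair *Ccl3* and *Ccl4* encodes the MIP-1 chemokines, which attract monocytes, macrophages and T cells. *Ccl3* was at 2235, 1751, 1820.2, 1636 and 1694 normalized counts in *Mrc1Cre Xpr1fl/fl* samples (1827 ± 238, SD, n = 5) and at 1330.4, 956, 826 and 871 in controls (996 ± 229, SD, n = 4). *Xpr1fl/fl* sample 1 was the highest control and still below every *Mrc1Cre Xpr1fl/fl* sample. The limma fit gave a log2 difference of 0.89 (SE 0.13, adjusted p = 0.000395), or 1.86-fold. With date as a term it was 0.74 and missed the threshold (adjusted p = 0.0814), although the earliest *Mrc1Cre Xpr1fl/fl* sample, at 1694, was above the 826 to 1330.4 of the controls of its date.

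*Ccl4* rose by the largest factor of the 10 in the fit without date, and *Cxcl10* did so in the fit with date. The *Mrc1Cre Xpr1fl/fl* samples had 1365, 1026, 1177, 890.2 and 938 normalized counts (1079 ± 194, SD, n = 5) and the controls 473, 349, 287 and 364 (368 ± 77.7, SD, n = 4). Within each genotype *Ccl3* and *Ccl4* were highest in sample 1. This was a log2 difference of 1.55 (SE 0.15, adjusted p = 3.36e-05 by limma), or 2.94-fold, and 1.37 with date as a term (adjusted p = 0.0159). The *Ccl4* count was 0.347 to 0.418 of the *Ccl3* count in controls and 0.544 to 0.647 of it in *Mrc1Cre Xpr1fl/fl* samples. This ratio and the other ratios between chemokines were chosen after the values were seen and were not tested.

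**Figure D2:**
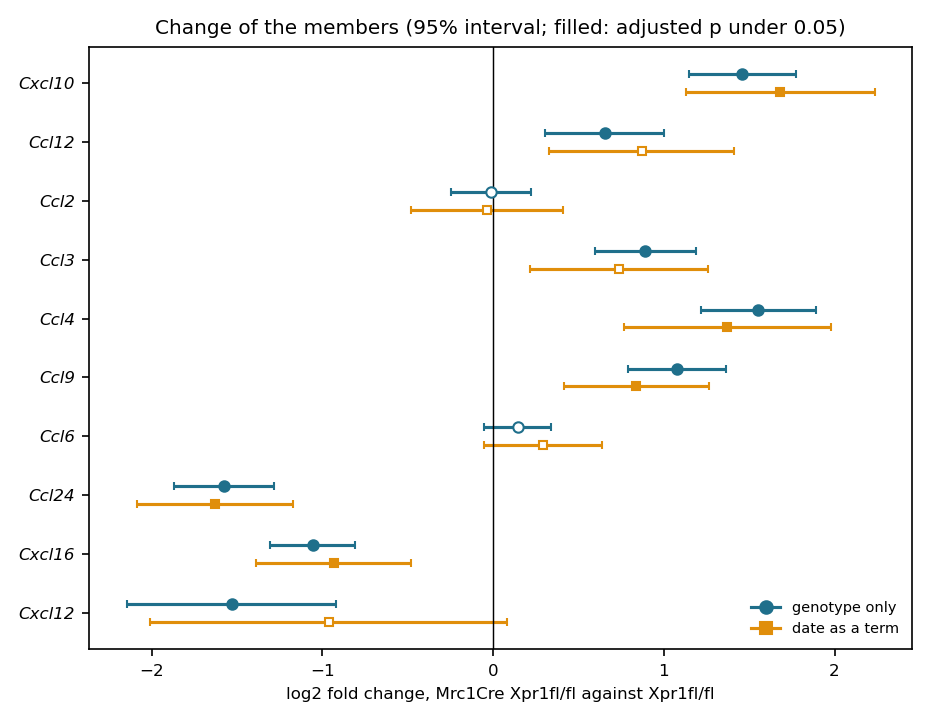
Log2 fold change of each chemokine between *Mrc1Cre Xpr1fl/fl* and *Xpr1fl/fl* with its 95% interval, from limma with genotype only (blue circles) and with date as a term (orange squares), filled where the adjusted p is under 0.05. The intervals of *Ccl2* and *Ccl6* cross 0 in both fits, and *Ccl12*, *Ccl3* and *Cxcl12* are open with date as a term.

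Of the constitutive chemokines, *Ccl9*, a mouse CC chemokine that signals through CCR1, was the single one to rise. It was at 2805, 2619, 2047, 1893 and 1780.2 normalized counts in *Mrc1Cre Xpr1fl/fl* samples (2229 ± 456, SD, n = 5) and at 978, 990.0, 1016 and 1186 in controls (1042 ± 96.9, SD, n = 4). The controls were close to each other, and the *Mrc1Cre Xpr1fl/fl* samples spread widely above them. The difference was 1.08 on the log2 scale (SE 0.13, limma adjusted p = 0.000107), or 2.11-fold, and 0.84 with date as a term (adjusted p = 0.0276).

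*Ccl6*, which neighbors *Ccl9* and also binds CCR1, was not called. Its normalized counts were 4782, 4435, 4499, 4630.0 and 5103 in *Mrc1Cre Xpr1fl/fl* samples (4689.9 ± 266, SD, n = 5) and 4633, 3384, 4622 and 4465 in controls (4276 ± 599.8, SD, n = 4). The ranges overlapped, and *Xpr1fl/fl* sample 2 was low. The log2 difference was 0.14 with a 95% interval from −0.05 to 0.34 (adjusted p = 0.221 by limma), so it ends below the interval of *Ccl9*, which starts at 0.79. With date as a term the intervals of *Ccl6* (−0.05 to 0.64) and *Ccl9* (0.41 to 1.27) overlapped. These genes were not tested against each other. The *Ccl9* count was 0.349 to 0.590 of the *Ccl6* count in *Mrc1Cre Xpr1fl/fl* samples and 0.211 to 0.293 in controls.

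*Ccl24*, or eotaxin-2, attracts eosinophils through CCR3 and is a gene of alternatively activated macrophages. Its normalized counts were 1159, 1324, 1591, 1615 and 1241 in *Mrc1Cre Xpr1fl/fl* samples (1386 ± 207, SD, n = 5) and 4418, 3188, 4017 and 4992 in controls (4154 ± 758, SD, n = 4). Even the lowest control was far above the highest *Mrc1Cre Xpr1fl/fl* sample. The limma fit gave a log2 difference of −1.58 (SE 0.13, adjusted p = 1.51e-05), a 2.98-fold decrease, and −1.63 with date as a term (adjusted p = 0.00265). Relative to *Ccl6*, *Ccl24* went from 0.869 to 1.12 in controls to 0.242 to 0.354. Markers of eosinophils, the cells that *Ccl24* attracts, and of mast cells were lower for 3 of 6 genes, with a summed level of 154 to 398 in *Mrc1Cre Xpr1fl/fl* and 242 to 1686 in controls, and the part of these cells in the result was not tested.

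*Cxcl16* encodes a chemokine that is held in the membrane, acts as a scavenger receptor there and binds CXCR6 once it is shed by ADAM10. It was at 472, 349, 478, 369.6 and 454 normalized counts in *Mrc1Cre Xpr1fl/fl* samples (425 ± 60.8, SD, n = 5) and at 932, 757, 927 and 904 in controls (880.0 ± 83.2, SD, n = 4). The genotypes were apart even with *Xpr1fl/fl* sample 2, the low control. This was a log2 difference of −1.06 (SE 0.11, adjusted p = 4.96e-05 by limma), a 2.08-fold decrease, and −0.93 with date as a term (adjusted p = 0.0237). *Cxcl10* was 1.96 to 2.94 times as high as *Cxcl16* in *Mrc1Cre Xpr1fl/fl* samples and 0.287 to 0.543 times as high in controls. The genes *Med11* and *Zmynd15* overlap *Cxcl16* on the opposite strand, and they differed by 0.03 and −0.31 on the log2 scale (adjusted p = 0.733 and 0.519 by limma).

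*Cxcl12*, the CXCR4 ligand of the stem cell niche, had the lowest level per kb of the 10, as given below, and is known mainly as a stromal product. The *Mrc1Cre Xpr1fl/fl* samples had 87.4, 41.4, 98.2, 82.1 and 118 normalized counts (85.4 ± 28.1, SD, n = 5) and the controls 274, 158, 282 and 252 (242 ± 57.1, SD, n = 4). The lowest control, sample 2, was still above the highest *Mrc1Cre Xpr1fl/fl* sample, sample 5. The difference was −1.53 on the log2 scale (SE 0.28, limma adjusted p = 0.00131), a 2.89-fold decrease. With date as a term it was −0.96 with a 95% interval from −2.01 to 0.08 (adjusted p = 0.228).

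The fall of *Cxcl12* was accompanied by a fall of markers of other cell types. Over all genes 21.6% were called as lower. Of 12 stromal markers 8 were lower and 0 higher (median log2 difference −1.38), and their summed normalized counts were 729 to 1280 in *Mrc1Cre Xpr1fl/fl* and 2324 to 6281 in controls (exact two-sided permutation test over 126 arrangements, p = 0.00794, the smallest it can give). Adjusted over the 10 marker lists by Benjamini-Hochberg, the p of this permutation test was 0.0159, and the test takes no account of date. *Col1a1* (−2.26), *Col3a1* (−2.18), *Col1a2* (−2.15) and *Reln* (−1.88), genes of the matrix and of hepatic stellate cells, changed most. Of 10 endothelial markers 8 were lower, with a sum of 6363 to 8476 against 10442 to 14608, and *Stab2* was the most abundant. All 9 hepatoblast markers (34887 to 45141 against 58821 to 101167) and all 13 erythroid markers tested were lower, the latter by a median of −1.82 with sums of 92084 to 306312 against 402727 to 644792. Granulocyte markers fell for 5 of 10 genes (5101 to 18282 against 9332 to 54944). Fewer of these markers were called as lower with date as a term, 3 of the stromal (median −1.11), 1 of the endothelial, 2 of the hepatoblast and 4 of the erythroid list (median −0.96), whereas 5 granulocyte markers were lower again. The part of these cells in the results for *Cxcl12* and for the other chemokines that changed was not tested. Monocyte markers were higher for 2 and lower for 4 of 10 genes (median −0.17), and their sums overlapped (10797 to 14242 against 8973 to 12054). With date as a term 0 monocyte markers were higher and 1 was lower (median −0.59). For megakaryocyte markers, 5 of 8 were lower (758 to 1132 against 2332 to 2834). With date as a term 1 was lower, *Pf4*, and the median went from −1.45 to −0.22. *Pf4*, at 1614 to 2097 in controls, made up most of the megakaryocyte sum there. For macrophage markers 6 of 14 were lower and 2 higher (303877 to 326477 against 309001 to 368124). Lymphoid markers were lower for 3 of 4 genes and higher for 1, with overlapping sums (1693 to 1994 against 1499 to 1996). Among all markers tested, a value of 0 occurred for *Gp1bb* in *Mrc1Cre Xpr1fl/fl* sample 4 and for no other.

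**Figure D3:**
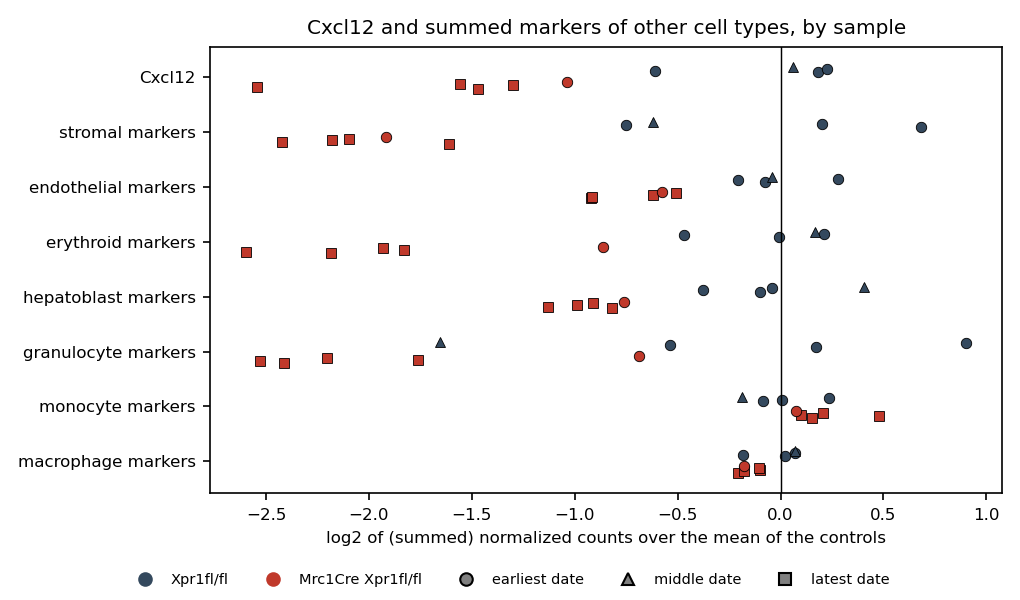
Log2 of the normalized count of *Cxcl12*, and of the summed normalized counts of marker lists, in each sample over the mean of the controls, with *Xpr1fl/fl* in dark blue and *Mrc1Cre Xpr1fl/fl* in red. Stromal, endothelial, erythroid and hepatoblast sums of every *Mrc1Cre Xpr1fl/fl* sample are left of every control, as for *Cxcl12*, whereas monocyte sums overlap and granulocyte sums overlap through *Xpr1fl/fl* sample 4 and *Mrc1Cre Xpr1fl/fl* sample 5.

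Within the earliest date, *Mrc1Cre Xpr1fl/fl* sample 5 lay outside the range of the 3 controls in the direction of the main result for all 8 chemokines called. It was lower for *Ccl24* (1241 against 3188 to 4418), *Cxcl16* (454 against 757 to 932) and *Cxcl12* (118 against 158 to 282). It was higher for *Ccl9* (1780.2 against 978 to 1016), *Ccl4* (938 against 287 to 473) and *Ccl12* (229 against 114 to 136). The single *Mrc1Cre Xpr1fl/fl* sample of that date allows no test of its own. *Ccl2* of that sample (717) was among its controls (683 to 766), and *Ccl6* (5103) was above them (3384 to 4633).

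Levels of different genes can be compared only per length of transcript, so normalized counts were divided by the length of the canonical transcript in kb. In controls *Ccl6* (2969 per kb) and *Ccl24* (2925) led and overlapped each other. They were followed by *Ccl3* (1284), *Ccl2* (908), *Ccl4* (536), *Ccl9* (346), *Cxcl10* (337) and *Cxcl16* (294), then *Ccl12* (172) and *Cxcl12* (42.6). Neighbors in this order did not overlap except *Ccl6* and *Ccl24*, *Ccl9* and *Cxcl10*, and *Cxcl10* and *Cxcl16*. In *Mrc1Cre Xpr1fl/fl* samples the order was *Ccl6* (3257), *Ccl3* (2355), *Ccl4* (1571), *Ccl24* (976), *Cxcl10* (919), *Ccl2* (909), *Ccl9* (740.2), *Ccl12* (270.5), *Cxcl16* (142) and *Cxcl12* (15.1). The 4 from *Ccl24* to *Ccl9* overlapped their neighbors.

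Summed over the 10 genes, the level per kb was 10242 to 12416 in *Mrc1Cre Xpr1fl/fl* samples and 8416 to 10922 in controls, so the ranges overlapped while the composition shifted. *Ccl24* made up 29.7 ± 2.92% (SD, n = 4) of this sum in controls and 8.83 ± 1.75% (SD, n = 5) in *Mrc1Cre Xpr1fl/fl* samples. *Ccl3* went from 13.1 ± 2.46% to 21.1 ± 1.25%, and *Ccl4* from 5.45 ± 0.87% to 14.0 ± 1.56%. The share of *Ccl6* was 30.2 ± 2.62% in controls and 29.3 ± 2.43% in *Mrc1Cre Xpr1fl/fl* samples. These shares were not tested.

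**Figure D4:**
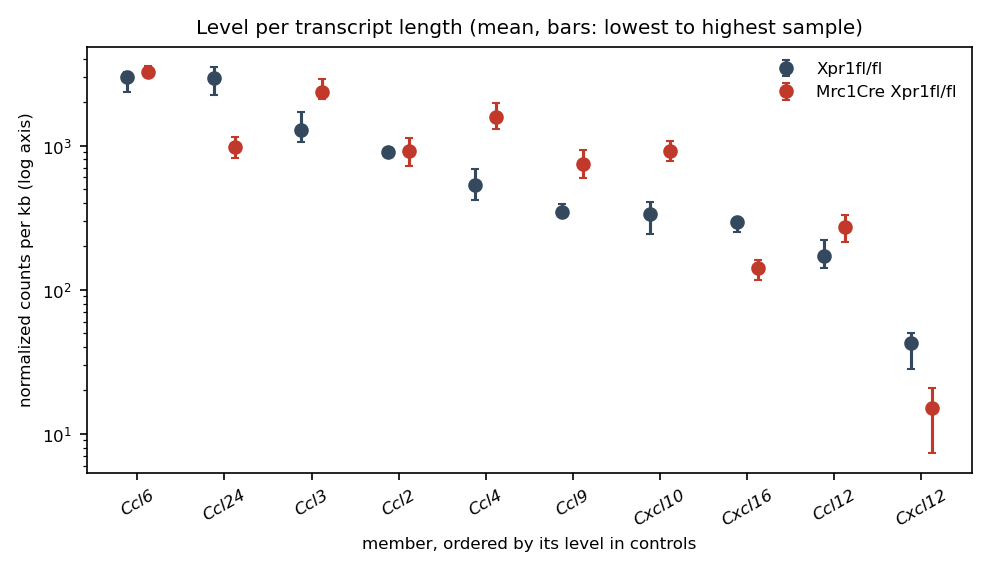
Normalized counts per kb of transcript on a log axis for the 10 chemokines, ordered by their level in controls, with the mean as a point and the lowest and highest sample as bars, *Xpr1fl/fl* in dark blue and *Mrc1Cre Xpr1fl/fl* in red. *Ccl6* is at the top in both genotypes, *Ccl24* is at 2925 in controls and at 976 in *Mrc1Cre Xpr1fl/fl* samples, and *Cxcl12* is lowest in both.

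Of 30 other chemokine ligands, 10 had a row and were tested, and the other 20 were not analysed here. *Ccl5* and *Cxcl2* rose, *Pf4* fell, and the median log2 difference was 0.00. These 3 calls among 10 genes compare with 43.1% of all genes. *Ccl5*, a T cell chemokine induced by interferon and NF-kB, was at 56.0 to 99.9 normalized counts in *Mrc1Cre Xpr1fl/fl* samples and 6.06 to 34.0 in controls (log2 difference 2.31, SE 0.40, adjusted p = 0.000891 by limma), a larger fold than for any of the 10 but at a low level and uncalled with date as a term (adjusted p = 0.0841). *Cxcl2*, a neutrophil chemokine, was at 596 to 1016 against 442 to 756 (0.55, adjusted p = 0.0343), and with date as a term it differed by 0.26 and was not called (adjusted p = 0.655). *Pf4*, known as a product of megakaryocytes and also counted among the megakaryocyte markers, was at 438 to 667 against 1614 to 2097 (−1.76, adjusted p = 7.79e-06, and 0.00114 with date as a term). Which cells of these samples its counts came from was not tested. *Cxcl9* and *Ccl7* were looked at after their values were seen, as relatives of *Cxcl10* and *Ccl2*. *Cxcl9*, the other interferon-induced CXCR3 ligand measured, differed by 0.54 (adjusted p = 0.0729), and with date as a term by 1.15 (adjusted p = 0.0398). *Ccl7*, a CCR2 ligand beside *Ccl2*, differed by −0.40 (adjusted p = 0.0618).

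Of 24 chemokine receptor genes 13 were tested, of which 2 were higher and 4 lower (median −0.09), a share close to the 43.1% called over all genes. The fit with date called 1. *Ccrl2*, an atypical receptor that binds chemerin, was at 566 to 764 normalized counts against 303 to 414 (0.81, adjusted p = 0.000269 by limma). *Cx3cr1*, the fractalkine receptor of monocytes and macrophages, with the highest counts of the list, was at 7676 to 11139 against 5827 to 7204 (0.52, adjusted p = 0.00332). *Cxcr3*, the receptor of CXCL10, was lower at 42.3 to 65.3 against 86.3 to 110.4 (−0.81, adjusted p = 0.00275). *Ackr1*, a decoy receptor carried by erythroid and endothelial cells, fell from 155 to 259.6 in controls to 44.9 to 90.02 (−1.87, adjusted p = 9.45e-05), and it was the sole receptor called with date as a term (−1.20, adjusted p = 0.0402). The other lower receptors were *Ccr3*, to which CCL24 binds (−0.45, adjusted p = 0.0236), and *Ccr9* (−1.40, adjusted p = 0.0190), with means of 90.3 and 21.0 normalized counts in controls.

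**Figure D5:**
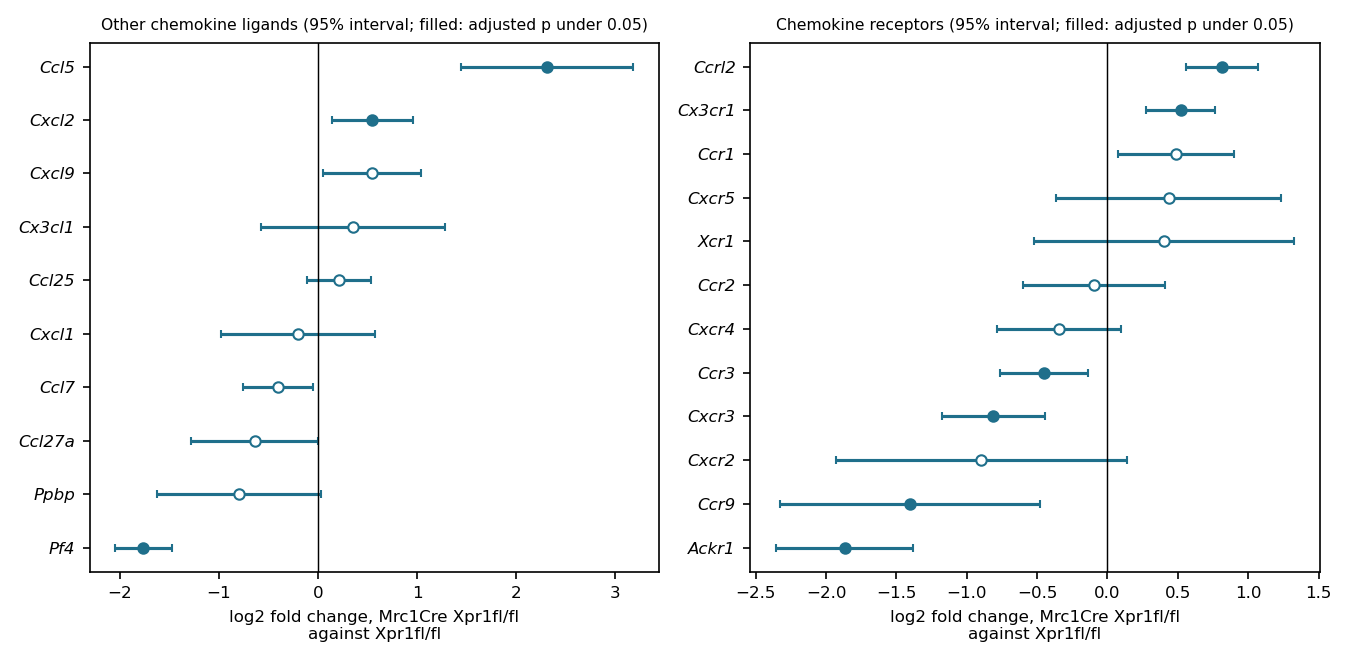
Log2 fold changes with 95% intervals of the other chemokine ligands (left) and of 12 of the chemokine receptors (right) between *Mrc1Cre Xpr1fl/fl* and *Xpr1fl/fl*, filled where the adjusted p is under 0.05. *Ccl5* (2.31) and *Pf4* (−1.76) are at the ends of the ligands, and *Ccrl2* (0.81) and *Ackr1* (−1.87) at the ends of the receptors.

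Of 13 genes that shed, cut or hold chemokines, 6 rose and 2 fell, and 3 rose and 1 fell with date as a term. Over all genes 21.5% were called higher and 21.6% lower, and 8.78% were called in either direction with date as a term. *Adam17*, a sheddase of membrane proteins, rose by 0.57 (adjusted p = 6.99e-05 by limma), and *Mmp12*, a macrophage elastase that cuts chemokines, rose by 2.13 (adjusted p = 7.75e-06). *Adam10*, whose product sheds CXCL16, was not called (0.14, adjusted p = 0.158 by limma, and −0.09, adjusted p = 0.551, with date as a term). *Ctsg*, a granule protease of neutrophil precursors, fell by 2.26 (adjusted p = 2.16e-05), and *Mmp9* fell by 1.46 on the log2 scale (adjusted p = 0.00517), which was −0.31 with date as a term. Syndecan-3 (*Sdc3*), a proteoglycan that can present chemokines, had the highest counts of the list.

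The genes that act upstream of the interferon-induced chemokines, or beside them, were also counted. For scale, 21.5% of all genes were called higher and 21.6% lower, and 8.78% were called with date as a term. Of 19 interferon signalling genes 9 were higher and 2 lower, among them *Irf7* (1.49), *Usp18* (1.37) and *Stat2* (0.80). In the fit with date 4 were higher and 0 lower, and *Stat2* was not called (adjusted p = 0.0948). Of 24 interferon effector genes tested 23 were higher and 0 lower (median 0.99, 13 with date as a term), led by *Oas3* (2.90), *Oasl1* (2.73), *Ifi44* (1.74) and *Oasl2* (1.69). *Cxcl10*, at 1.46, was thus within the range of these genes, *Ccl12*, at 0.65, was below their median, and *Ccl2*, at −0.01, was not called.

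Of 28 NF-kB pathway genes 15 were higher and 1 lower (median 0.36), and 6 were higher and 0 lower with date as a term. Most changed were *Ptgs2* (1.01), *Il1b* (0.83), *Tnf* (0.76) and *Icam1* (0.72), of which *Icam1* alone was called with date as a term. *Ccl4* (1.55) exceeded each of them in the fit without date. Of 15 genes of the IL-4 and STAT6 response, to which *Ccl24* belongs, 5 were higher and 5 lower (median −0.26). *Socs2* (−1.48), *Ear2* (−0.91) and *Arg1* (−0.71) fell and *Il2rg* (0.59) rose. In the fit with date 1 gene of this list was higher, *Il2rg*, and 0 were lower, so the falls of *Socs2*, *Ear2* and *Arg1* were not called. Both lists stand beside the 21.5% of all genes called higher, the 21.6% called lower and the 8.78% called with date as a term. These lists were put together by hand and overlap in function, and their counts are given as descriptions.

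The genes most like each chemokine were those with the highest Pearson correlation of log2(normalized count + 1) over the 9 samples, among 11393 genes. The samples form 2 genotypes, so that for the chemokines that changed the value mostly follows the difference between the groups. *Cxcl12* was most like *Cavin1* (r = 0.989), *Ypel5* (0.988) and the stromal marker *Lum* (0.986), *Ccl24* was most like *Lonrf1* (0.996), and *Cxcl16* was most like *Gdf3* (0.987). For *Cxcl10* it was *Wdr1* (0.989), for *Ccl12* *Get3* (0.990), and for *Ccl9* *Mlec* (0.989). *Ccl3* and *Ccl4* shared *Drg2* as their first gene (0.985 and 0.994), and *Irf5* was second for *Ccl4* (0.994). The values were lower for *Ccl2* with *Fmc1* (0.934) and for *Ccl6* with *Agap1* (0.942), which did not differ between the genotypes beyond the threshold.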

How the data were processed

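Bulk RNA-seq libraries were made from 45 ng of RNA of E15.5 liver macrophages (5 Mrc1Cre Xpr1fl/fl and 4 Xpr1fl/fl samples). The authors checked reads with FastQC, quantified them with salmon against GRCm39, imported them with tximport and normalized them with DESeq2, with versions not given in the sources used here. The deposited table holds a signal for each gene, namely counts that the authors divided by normalization factors. 0 columns belonged to no mapped sample. In low values, 26.5% to 49.7% lay near a whole multiple of a sample's spacing (tolerance 0.05), so whole reads were not recovered and no count test was run. Chance gives 10% for a single fixed spacing. The spacing used was the best of many, so its share by chance is higher and was not computed.

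Symbols and coordinates came from GENCODE mouse release 39. The 13594 genes that reached 10 normalized counts in 4 or more samples entered a limma 3.58.1 fit (R 4.3.3, lmFit and eBayes with trend) of log2(normalized count + 1). Fold changes of low genes are understated on this scale. Genes were called at an adjusted p under 0.05 (Benjamini-Hochberg). The fit was tested on simulated data. Marker sums were compared by exact two-sided permutation tests. Promoter windows were aligned with biopython 1.88 and plots made with matplotlib 3.10.9 (Python 3.11.15).

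The chemokines and the gene lists were chosen with earlier results of these data known, as was the use of the dates. Named genes were all 10 chemokines, *Xpr1*, *Mrc1*, of each list the most abundant gene and the 4 with the largest change among the called genes averaging 50 normalized counts or more, and the 3 most correlated genes of each chemokine. Genes named beside these were chosen after their values were seen. Alternatives were other pseudocounts (0.5 and 10), quantile normalization, scaling to the 75th percentile, no filter or one of 50 normalized counts, other variance models, the replicate number as a block, date as a term and leaving out each sample. Other experiments of the study were not analysed here, and some named genes and a motif are not reported here.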

Additional observations from a re-analysis of the deposited data

Results flagged for a closer look

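In 20 groups of samples (10 chemokines in 2 genotypes), the lowest or highest sample stood apart from the others by Dixon's criterion in 2. Both were in *Xpr1fl/fl* sample 2. *Ccl6* was at 3384 normalized counts there and at 4465 to 4633 in the other controls, and *Cxcl16* was at 757 there and at 904 to 932 in the others. Chance gives about 1 such group in 20. *Cxcl12* was also lowest in this control, without standing apart by the criterion.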

How the results depend on the processing

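Each of 16 results was recomputed under 20 alternatives. Of these 320 values, 307 were rated the same. A fold change was rated so if it kept its direction and its side of the threshold. A count of called genes was rated so if it stayed within a fixed factor of the main count. The chemokines called lower, 3 in the main fit and 2 with date as a term, were therefore rated the same. With date as a term, the genes called dropped from 5865 to 1194, the chemokines called from 8 to 5, those higher from 5 to 3 and the receptors from 6 to 1, and *Ccl3* (0.74), *Ccl12* (0.87) and *Cxcl12* (−0.96) were no longer called, in a fit that leaves 5 residual degrees of freedom instead of 7 and compares 4 samples in effect. With quantile normalization 5 other ligands were called instead of 3, and the cause was not tested. *Ccl2*, never called, turned to 0.0068 with quantile normalization and 0.0203 with array weights, and ranged from −0.0946 to 0.0660 when each sample was left out, with a value above 0 without *Mrc1Cre Xpr1fl/fl* sample 4 and without *Xpr1fl/fl* sample 1 or 2. Leaving out samples gave 4815 to 6081 genes called, 8 chemokines each time, 2 to 4 other ligands and 5 to 7 receptors. The log2 ranges were 1.31 to 1.56 for *Cxcl10*, 0.57 to 0.78 for *Ccl12*, 0.81 to 1.04 for *Ccl3*, 1.44 to 1.68 for *Ccl4*, 0.99 to 1.15 for *Ccl9*, 0.03 to 0.19 for *Ccl6*, −1.70 to −1.48 for *Ccl24*, −1.13 to −0.99 for *Cxcl16* and −1.72 to −1.30 for *Cxcl12*. The replicate numbers did not pair the samples, since deviations of same-numbered samples correlated at −0.03, 0.15, −0.01 and −0.03. With the number as a block, which gives *Mrc1Cre Xpr1fl/fl* sample 5 no weight, 6226 genes and 8 chemokines were called, and *Cxcl12* was at −1.67. Without that sample the genotypes share no date. Neither this fit nor the one leaving that sample out can therefore tell genotype from date. Depth per gene is unknown and limits *Cxcl12*, at 41.4 normalized counts in its lowest sample.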
